A study of Homo sapiens with 192 samples.

Results

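The 10 genes described here were listed as identity genes of the absorptive colonocyte, the columnar cell that lines the colon and takes up water, salts and nutrients. That they are particular to this cell was not tested. They were chosen by name, with no measured value in the rule but with earlier results of these data known. They are CDX1, CDX2, HNF4A, VIL1, FABP1, ANPEP, SI, GUCA2A, GUCA2B and GUCY2C, that is 10 of the 58243 genes with counts. Each matched 1 Ensembl identifier, and 9 of them were among the 19387 genes kept for testing, while SI was not. Poly(A) RNA was sequenced from 4 established human colorectal cancer (CRC) lines, LS513, LS174T, HT29 and HCT116, in 2D (an adherent layer) and in 3D, with no treatment named in the labels and 3 libraries for each of the 8 groups. The labels do not say whether libraries of a group came from separate cultures, so p-values measure the spread between these libraries only. Each line is a single established line, and HCT116 was kept in McCoy medium and the others in DMEM, so that medium and line cannot be told apart for HCT116. How the 3D cultures used for RNA were set up is not given in the sources used here beyond the word 3D, and the spheroid assays of the study used low attachment plates.

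In the gut epithelium the homeobox factors CDX1 and CDX2 and the nuclear receptor HNF4A hold the intestinal program and act on many genes of the mature absorptive cell. That cell carries a brush border of microvilli bundled by villin (VIL1), membrane enzymes such as aminopeptidase N (ANPEP) and sucrase-isomaltase (SI), and the cytosolic fatty acid carrier FABP1. Guanylin (GUCA2A) and uroguanylin (GUCA2B) are secreted peptides that bind the receptor guanylate cyclase C (GUCY2C), which makes cyclic GMP and so controls salt and water transport.

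FABP1 rose in 3D in 3 of the 4 lines, from 170.1 to 2051 counts per 1000000 scaled counts (CPM) in LS513, from 6.25 to 128 CPM in LS174T and from 0 counts to 0.971 CPM in HT29. CDX2 and HNF4A rose in HT29, LS513 and LS174T, and CDX1 rose in HT29, where CDX1 and CDX2 started from the low levels of 0.462 and 1.43 CPM. In HCT116 none of the 10 genes passed the test, and 7 of them were not above the floor of 3 counts in every library of either group. GUCA2B rose in HT29 and fell in LS513, and GUCA2A rose in HT29 and LS174T and did not pass in LS513. LS513 had the highest level of 7 of the 10 genes in both growth conditions.

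CPM are on the scale of TMM, a scaling of library totals by edgeR, and are given as mean ± SD with n = 3 libraries. Library totals were between 18723942 and 34277421 counts, so that 3 counts in a library, taken as the floor of detection, equal 0.0853 to 0.164 CPM. Tests are edgeR's quasi-likelihood test over all 24 libraries, two-sided, with p adjusted by the Benjamini-Hochberg method over 19387 genes and a threshold of 0.05, and fold changes are log2 of 3D over 2D with an approximate standard error (SE). The SE was derived from the test, as the absolute log2 fold change over the square root of its F statistic, and is unreliable at low counts. An exact permutation test of 3 libraries against 3 cannot give a p under 0.1. With these cultures measured in bulk, fewer cells of a type and less RNA per cell cannot be told apart. All 5 epithelial markers looked at (EPCAM, CDH1, KRT8, KRT18 and KRT19) were above the floor in every group, with a summed level between 2717 and 17352 CPM. PTPRC, a marker of leukocytes, and CD3E, a marker of T cells, were at 0 or at most at the floor, and COL1A2 was at 0 in all 8 groups. Other genes of the same marker lists were counted. CD68 rose in every line, and the fibroblast list summed to 10.2 to 22.1 CPM in HCT116 grown in 3D.

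**Figure D1:**
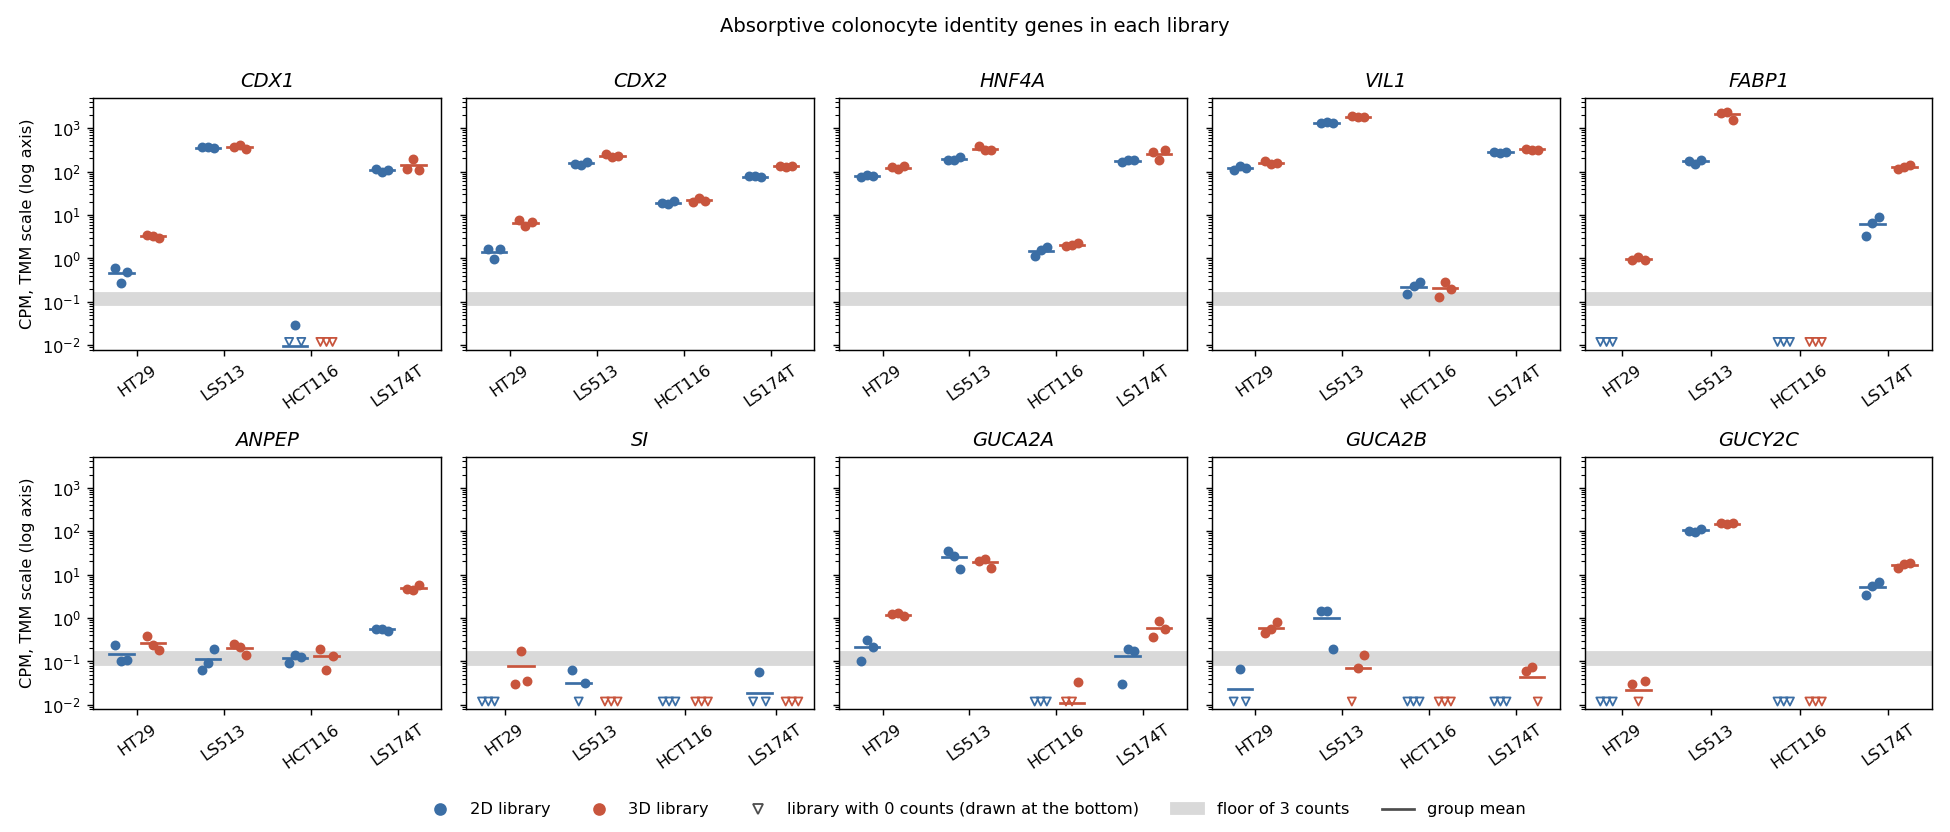
CPM on the TMM scale (log axis) of the 10 genes in each library, for 2D (blue) and 3D (red) growth of the 4 lines. Points are libraries, short lines are group means, open triangles are libraries with 0 counts and the grey band is the floor of 3 counts. FABP1 sits at 1515 to 2373 CPM in LS513 grown in 3D against 149.97 to 187 CPM in 2D, while SI stays at or near the floor throughout.

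The first question was where these genes were expressed. More than 3 counts in each of the 3 libraries were found for 8 of the 10 genes in LS513 grown in 2D, for 7 in LS174T, for 4 in HT29 and for 3 in HCT116. In 3D the same counts were 8 in LS513, 8 in LS174T, 8 in HT29 and 3 in HCT116. Only in 3D were FABP1, ANPEP, GUCA2A and GUCA2B above the floor in every library of HT29, with ANPEP at only 5 to 13 counts. GUCA2A already had 3 to 9 and ANPEP 2 to 7 counts a library there in 2D, and the change of ANPEP did not pass. The 3 genes above the floor in HCT116 were CDX2, HNF4A and VIL1.

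Levels of different genes were compared per kilobase of annotated exon, since long transcripts give more reads. In LS513 grown in 2D, CDX1 stood at 201 CPM per kilobase and VIL1 at 193, followed by FABP1 at 68.9 and GUCA2A at 43.8. In 3D, FABP1 came first at 830 CPM per kilobase, ahead of VIL1 at 265 and CDX1 at 210. With the length of the longest coding transcript in place of all exons, VIL1 came to 204 CPM per kilobase in 2D, above CDX1. In LS174T the highest levels per kilobase belonged to CDX1, at 61.6 in 2D and 78.6 in 3D, with FABP1 moving from 2.53 to 51.9. In HT29 they belonged to VIL1 and HNF4A, at 17.3 and 10.9 CPM per kilobase in 2D and 23.2 and 16.9 in 3D. In HCT116, CDX2 was the only one of the 10 above 1 CPM per kilobase, with 4.64 in 2D and 5.23 in 3D.

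**Figure D2:**
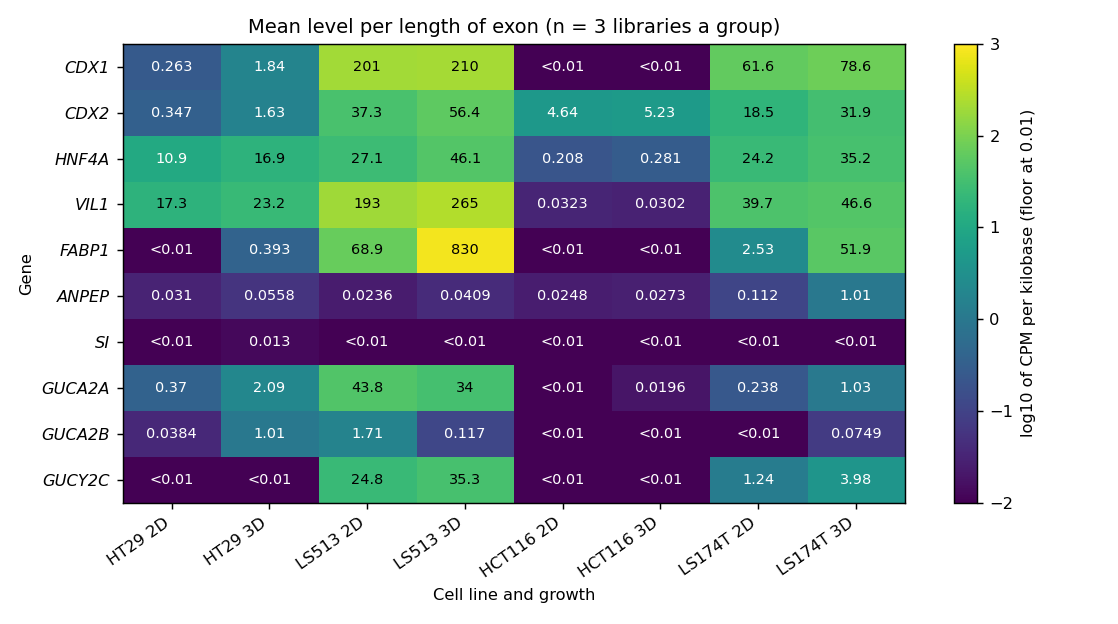
Mean level per length of exon of the 10 genes (rows) in the 8 groups (columns), with the number in each cell in CPM per kilobase and the colour on a log10 scale. LS513 is bright in most rows and reaches 830 for FABP1 in 3D, and HCT116 is dark except for CDX2 at 4.64 and 5.23.

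CDX1 (chr5:150166795-150184558 on the plus strand of GRCh38, 3 exons) encodes a homeobox factor of the intestinal epithelium. In HT29 it was at 0.617, 0.275 and 0.493 CPM in 2D and at 3.5, 3.28 and 2.94 CPM in 3D, and the lowest 3D library was well above the highest 2D library. The log2 fold change was 2.82 (SE 0.31, adjusted p = 6.6e-07). In LS513 it was at 359.8, 358 and 340.5 CPM in 2D and at 368, 413 and 326 CPM in 3D, with overlapping groups and a log2 fold change of 0.06 (SE 0.16, adjusted p = 0.84). In LS174T it was at 115, 100.04 and 109.7 CPM in 2D and at 114, 193 and 108 CPM in 3D, so that 1 library of 3 stood above the rest. The log2 fold change there was 0.35 (SE 0.16, adjusted p = 0.12) and did not pass, with 0.04 when replicate 2 of the 3D group was left out and 0.50 (adjusted p = 0.02) when replicate 3 was left out. HCT116 gave 1 count of CDX1 over its 6 libraries.

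CDX2 (chr13:27962137-27971139, minus strand, 3 exons) encodes the related factor that is used in pathology as a marker of intestinal origin. HT29 had 1.68, 0.963 and 1.64 CPM in 2D and 7.72, 5.5 and 6.93 CPM in 3D, a log2 fold change of 2.25 (SE 0.17, adjusted p = 1.8e-09). LS174T had 77.8, 77.1 and 73.8 CPM in 2D and 137, 127 and 131 CPM in 3D, a log2 fold change of 0.79 (SE 0.12, adjusted p = 5.5e-05). LS513 had 149, 145 and 168 CPM in 2D and 254, 217 and 226 CPM in 3D, a log2 fold change of 0.60 (SE 0.12, adjusted p = 6.2e-04). In these 3 lines every 3D library was above every 2D library, as for 27.3% of all tested genes in HT29, 20.9% in LS174T and 23% in LS513. In HCT116 the groups overlapped at 18.6, 17.9 and 20.9 CPM in 2D and 19.9, 24.2 and 20.6 CPM in 3D (log2 fold change 0.17, SE 0.12, adjusted p = 0.31). Per kilobase, the ratio of CDX1 to CDX2 was between 4.74 and 5.81 in the LS513 libraries grown in 2D and between 3.38 and 4.46 in those grown in 3D. It was near 1 in HT29, at 0.67 to 0.861 in 2D and 0.994 to 1.4 in 3D.

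HNF4A (chr20:44355700-44434596, plus strand, 10 exons in its longest coding transcript) encodes a nuclear receptor that acts on many genes of the absorptive cell and of the liver. It was at 76.2, 83.8 and 79.1 CPM in HT29 grown in 2D and at 126, 112 and 132 CPM in 3D (log2 fold change 0.63, SE 0.14, adjusted p = 0.0011). In LS513 it was at 185, 187 and 221 CPM in 2D and at 383, 308 and 319.7 CPM in 3D (log2 fold change 0.77, SE 0.14, adjusted p = 2.9e-04). Both lines had all 3D libraries above all 2D libraries. In LS174T the values were 164, 183 and 184 CPM in 2D and 277, 186 and 309 CPM in 3D, where the second 3D library lay just above the 2D group. The log2 fold change was 0.54 (SE 0.14, adjusted p = 0.0081), was 0.74 without that library, and did not pass when LS174T was fitted without the other lines (adjusted p = 0.096). In HCT116 the level was low, at 1.12, 1.58 and 1.86 CPM in 2D and 1.9, 2.03 and 2.24 CPM in 3D, and the difference of 0.44 (SE 0.22, adjusted p = 0.14) did not pass although the groups did not overlap, as for 22.8% of all tested genes that had every 3D library above the 2D libraries.

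VIL1 (chr2:218419092-218453295, plus strand, 20 exons in its longest coding transcript) encodes villin, which bundles the actin core of microvilli. It was at 1309, 1384 and 1307 CPM in LS513 grown in 2D and at 1933, 1762 and 1801 CPM in 3D (log2 fold change 0.46, SE 0.09, adjusted p = 6.1e-04). HT29 had 108, 131 and 119.9 CPM in 2D and 174, 147 and 161 CPM in 3D (log2 fold change 0.43, SE 0.09, adjusted p = 7.0e-04). The 3D libraries of both lines were all above their 2D libraries. In LS174T they were so too, at 277, 270.1 and 278 CPM in 2D and 326, 321 and 320.5 CPM in 3D, but the log2 fold change of 0.23 (SE 0.09) missed the threshold with an adjusted p of 0.066 and passed with DESeq2 (adjusted p = 0.011). HCT116 had 5, 8 and 9 counts of VIL1 in 2D and 4, 9 and 6 counts in 3D. The exons of VIL1 share 3045 bases, or 44% of their length, with USP37 on the opposite strand. In HCT116 USP37 had 752 to 1595 counts a library beside the 4 to 9 counts of VIL1.

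FABP1 (chr2:88122982-88128116, minus strand, 3 exons) encodes the small cytosolic protein that binds long-chain fatty acids in the absorptive cell and in the hepatocyte. In LS513 it was at 174, 149.97 and 187 CPM in 2D and at 2265, 2373 and 1515 CPM in 3D, and the lowest 3D library was far above the highest 2D library. The log2 fold change was 3.59 (SE 0.24, adjusted p = 1.9e-08), a 12.1-fold rise. In LS174T it was at 3.29, 6.43 and 9.03 CPM in 2D and at 116, 129 and 139 CPM in 3D, a log2 fold change of 4.36 (SE 0.26, adjusted p = 9.5e-09) and a 20.5-fold rise. In HT29 all 3 libraries in 2D had 0 counts and those in 3D had 31, 31 and 25 counts, so that the rise was at least 7.87-fold against the floor of 3 counts per library (adjusted p = 2.4e-04). All 6 libraries of HCT116 had 0 counts. Of the 5 hepatocyte markers looked at (ALB, TTR, TF, FGB and CYP3A4), 2 were tested, and CYP3A4 rose in LS513 (0.0208 to 0.165 CPM, at most 10 counts a library) and LS174T (0.244 to 1.02 CPM) and TTR rose in HT29 (0.0526 to 1.66 CPM), the lines in which FABP1 rose. ALB and FGB, which define hepatocytes, had at most 1 count in every library of these lines, and the part of the list in the rise of FABP1 was not tested.

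The sequence before the start site of FABP1 is shown beside that of SI, because the former gene rose in 3 lines and the latter had hardly any counts. Both come from RefSeq (GRCh38.p14), run 5′ to 3′ on the gene's strand and end at the base before the start, and capitals mark CATAAA, a core bound by CDX factors, and TATAAA, each on either strand. The windows are chr2:88128063-88128312 for FABP1 and chr3:165078497-165078746 for SI, both on the minus strand.
FABP1: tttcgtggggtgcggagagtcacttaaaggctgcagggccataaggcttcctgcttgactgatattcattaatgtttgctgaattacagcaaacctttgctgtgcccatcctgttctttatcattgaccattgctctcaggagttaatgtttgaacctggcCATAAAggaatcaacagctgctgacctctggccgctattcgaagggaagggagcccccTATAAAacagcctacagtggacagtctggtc
SI: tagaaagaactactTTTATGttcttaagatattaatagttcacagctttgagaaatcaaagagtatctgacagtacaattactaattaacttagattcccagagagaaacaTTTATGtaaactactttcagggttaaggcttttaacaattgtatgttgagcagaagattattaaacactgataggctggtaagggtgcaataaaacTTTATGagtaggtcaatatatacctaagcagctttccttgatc

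FABP1 held CATAAA at 89 to 84 and TATAAA at 31 to 26 bases before the start. SI held CATAAA on the opposite strand at 236 to 231, 139 to 134 and 43 to 38 bases before the start. Of 35116 windows of the same length in the table, 9.64% held CATAAA and 10.7% held TATAAA on either strand. CAAAGTCCA, a core bound by HNF4 factors, was in 0.325% of all windows and in none of the 9 windows of the 7 genes that the table held (CDX2, HNF4A, FABP1, ANPEP, SI, GUCA2A and GUCA2B). A match describes the letters only.

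The brush border enzymes were low. ANPEP (chr15:89784889-89815401, minus strand, 21 exons in its longest coding transcript), which trims peptides at the cell surface, was at 0.568, 0.569 and 0.504 CPM in LS174T grown in 2D and at 4.75, 4.3 and 5.65 CPM in 3D. This was the only line in which it passed (log2 fold change 3.16, SE 0.28, adjusted p = 3.1e-08), and the groups were far apart. In the other lines it had between 2 and 13 counts a library, with log2 fold changes of 0.81 (SE 0.45, adjusted p = 0.17) in HT29, 0.77 (SE 0.48, adjusted p = 0.31) in LS513 and 0.13 (SE 0.50, adjusted p = 0.93) in HCT116. SI (chr3:164978898-165078495, minus strand, 48 exons), the disaccharidase that splits sucrose, had 1, 5 and 1 counts in the 3D libraries of HT29. It had at most 2 counts in every other library, and a change in SI was not detectable at this depth.

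GUCA2A (chr1:42162691-42164718, minus strand) and GUCA2B (chr1:42153421-42155824, plus strand) are neighbours with 3 exons each and encode guanylin and uroguanylin. GUCA2A rose in HT29 from 0.103, 0.31 and 0.219 CPM to 1.21, 1.28 and 1.09 CPM (log2 fold change 2.49, SE 0.52, adjusted p = 7.3e-04), with no overlap of the libraries. In LS174T it rose from 0.0299, 0.199 and 0.178 CPM to 0.368, 0.839 and 0.553 CPM (log2 fold change 2.04, SE 0.59, adjusted p = 0.017), which rests on 14 counts in 2D and 53 in 3D and was lost without replicate 1 of the 2D group (adjusted p = 0.079), without replicate 2 of the 3D group (adjusted p = 0.11) or with LS174T fitted alone (adjusted p = 0.053). In LS513 the groups overlapped at 34.8, 26.4 and 13.6 CPM in 2D and 20.7, 22.9 and 14.4 CPM in 3D (log2 fold change -0.36, SE 0.27, adjusted p = 0.36). HCT116 had 1 count in all.

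GUCA2B was counted less often than GUCA2A in LS513, where the level of GUCA2A per kilobase was 19.1 to 75.2 times as high in the libraries grown in 2D, while in HT29 grown in 3D it was 1.43 to 2.8 times as high. HT29 had 0, 2 and 0 counts in 2D and 15, 16 and 22 counts in 3D, and the ratio of the summed and scaled counts was 22.6 with an exact 95% counting interval of 5.96 to 192 (edgeR adjusted p = 0.0037). LS513 had 44, 48 and 6 counts in 2D and 0, 2 and 4 counts in 3D, a log2 fold change of -3.78 (SE 0.80, adjusted p = 0.0024). The libraries of LS513 did not overlap, as for 20% of all tested genes that had every 3D library below the 2D libraries, yet replicate 3 of the 2D group, at 0.19 CPM, was closer to the 3D group at 0 to 0.139 CPM than to the other 2D libraries at 1.42 and 1.45 CPM. That library was also the lowest of its group for GUCA2A. The fall passed without it (log2 fold change -4.27) and without each other library of LS513 (-4.70 to -3.24). LS174T had at most 2 counts a library and HCT116 had 0.

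The sequences before both start sites are shown because the genes are neighbours and encode ligands of the same receptor, GUCA2B at chr1:42153160-42153409 on the plus strand and GUCA2A at chr1:42164746-42164995 on the minus strand, with source and direction as for FABP1.
GUCA2B: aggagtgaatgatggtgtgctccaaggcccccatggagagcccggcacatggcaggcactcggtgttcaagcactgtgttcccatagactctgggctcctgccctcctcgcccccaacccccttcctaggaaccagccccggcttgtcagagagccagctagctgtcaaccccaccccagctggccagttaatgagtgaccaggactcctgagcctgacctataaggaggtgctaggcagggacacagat
GUCA2A: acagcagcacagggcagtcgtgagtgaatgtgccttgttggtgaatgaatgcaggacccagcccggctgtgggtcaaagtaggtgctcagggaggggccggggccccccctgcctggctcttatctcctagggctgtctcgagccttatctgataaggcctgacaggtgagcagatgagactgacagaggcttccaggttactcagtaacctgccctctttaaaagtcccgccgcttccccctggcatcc

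Neither window of the guanylin pair held any of the 3 motifs in these letters.

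GUCY2C (chr12:14612632-14696585, minus strand, 27 exons in its longest coding transcript) encodes the receptor of both peptides. It was at 103, 95.9 and 112 CPM in LS513 grown in 2D and at 151, 142 and 150.00 CPM in 3D, a log2 fold change of 0.51 (SE 0.16, adjusted p = 0.025). LS174T had 3.41, 5.46 and 6.67 CPM in 2D and 14.4, 17.5 and 18 CPM in 3D, a log2 fold change of 1.68 (SE 0.17, adjusted p = 4.2e-06). In both lines all 3D libraries were above the 2D libraries, but the rise in LS513 was lost when any of 4 of its libraries was left out (replicates 1 and 2 of each growth condition, adjusted p between 0.057 and 0.11). HT29, in which both ligands rose, had 0 counts of the receptor in 2D and 1, 0 and 1 in 3D, and HCT116 had 0 counts. The exons of GUCY2C share 3.52% of their length with PLBD1-AS1 on the opposite strand, which had 0 to 70 counts a library.

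**Figure D3:**
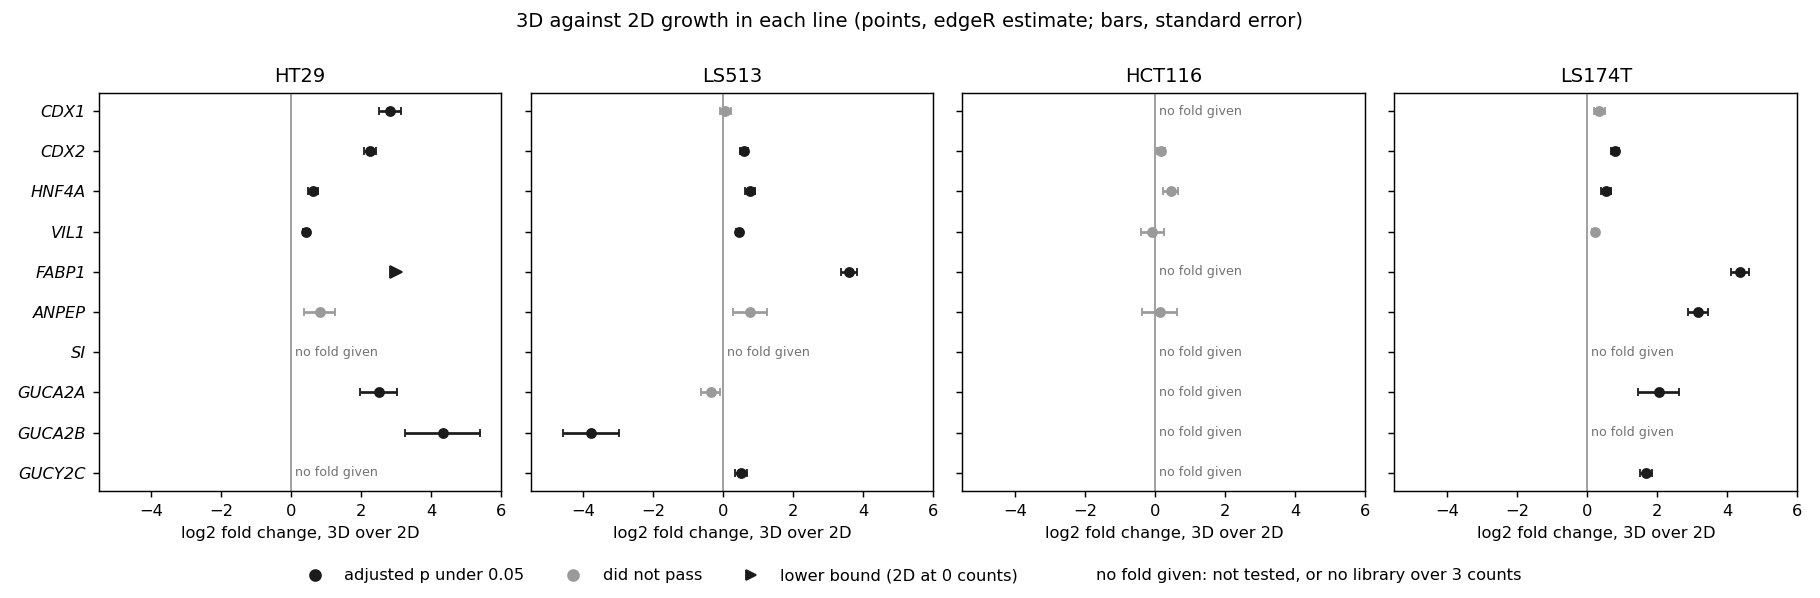
Log2 fold change of 3D over 2D with its SE for 9 of the 10 genes, black where the adjusted p of edgeR passed 0.05 and grey where it did not. SI was not tested, and no fold is given where no library was over 3 counts. The arrowhead for FABP1 in HT29 is its lower bound of 7.87-fold on the log2 scale. CDX1 and CDX2 are far to the right in HT29 alone, ANPEP in LS174T, and GUCA2B is to the left in LS513.

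Counted over the 10 genes, 7 rose in HT29, where 40.7% of all tested genes changed, 21.1% upwards and 19.6% downwards. In LS513, 5 rose and 1 fell, where 23.6% of all tested genes changed, 13.7% upwards and 9.9% downwards. In LS174T, 6 rose, where 22.2% of all tested genes changed, 13.1% upwards and 9.15% downwards. In HCT116, 0 passed with edgeR, 0 had an unadjusted p under 0.05 and 0 passed with DESeq2, while 29.1% of all tested genes changed, 16.8% upwards and 12.3% downwards. Only CDX2, HNF4A and VIL1 were above the floor in every library there, so that for the other genes a change could hardly be seen. The median log2 fold change of all tested genes was 0.00 to 0.02 in the 4 lines. CDX1, FABP1, GUCA2A, GUCA2B and GUCY2C were at 0 in whole groups. They passed the filter on low counts through the groups in which they were high. ANPEP passed that filter through LS174T, as it had 2 to 13 counts a library in the other lines. These counts are therefore a description of the genes.

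Whether the growth effect differed between lines was tested with the interaction of line and growth. It differed for 6 of the 10 genes, where 17.1% of all tested genes did, and these were CDX1 (adjusted p = 6.8e-05), CDX2 (1.8e-06), ANPEP (5.2e-04), GUCA2A (0.0029), GUCA2B (0.0016) and GUCY2C (0.01). Of these, CDX1, GUCA2A, GUCA2B and GUCY2C were at 0 in whole groups. They passed the filter on low counts through the groups in which they were high, and ANPEP passed it through LS174T. The count of 6 is therefore a description of the genes. It was not shown to differ for HNF4A (adjusted p = 0.73), VIL1 (0.35) or FABP1 (0.2), and for FABP1 the test passed with DESeq2 (adjusted p = 0.015). For CDX2 the rise in HT29 exceeded that in each other line, by 1.66 on the log2 scale over LS513 (SE 0.21, adjusted p = 6.2e-06), 1.47 over LS174T (SE 0.21, adjusted p = 7.1e-05) and 2.08 over HCT116 (SE 0.21, adjusted p = 4.3e-07). For CDX1 it exceeded that in LS513 by 2.75 (SE 0.35, adjusted p = 1.4e-05) and that in LS174T by 2.46 (SE 0.36, adjusted p = 1.5e-04), while against HCT116, with its 1 count of CDX1, the difference did not pass (adjusted p = 0.41). For ANPEP the change in LS174T was the larger one, with differences of -2.35 for HT29 minus LS174T (adjusted p = 0.012), -2.38 for LS513 minus LS174T (adjusted p = 0.022) and -3.03 for HCT116 minus LS174T (adjusted p = 0.003). The change of GUCA2A and of GUCA2B in HT29 exceeded that in LS513 by 2.85 (adjusted p = 0.0022) and 8.10 (adjusted p = 4.4e-04). The rise of GUCY2C was smaller in LS513 than in LS174T, with a difference of -1.17 (SE 0.23, adjusted p = 0.0067). For FABP1 the rise in LS513 minus that in LS174T was -0.76 (SE 0.32, adjusted p = 0.26), which did not pass. Each line has its own 2D control, and the comparisons of 2 effects that involve the same line share its libraries.

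The lines were also put in order by level within each growth condition, a comparison in which 91.7% of all tested genes differed over the lines in 2D and 91.7% in 3D, so that a difference between lines is the rule for any gene. CDX1 and VIL1 followed the order LS513, LS174T, HT29 and HCT116 in both growth conditions, and each step passed, with VIL1 stepping down by 2.28, 1.20 and 9.05 on the log2 scale in 2D. HNF4A followed the same order, but LS513 and LS174T did not differ in 2D beyond their spread (0.16, SE 0.14, adjusted p = 0.33), and in 3D they differed by 0.39 (SE 0.14, adjusted p = 0.018) with overlapping libraries. CDX2 had another order, with HCT116 above HT29 by 3.76 (SE 0.16, adjusted p = 9.7e-16) in 2D and by 1.68 (SE 0.13, adjusted p = 5.6e-11) in 3D. HCT116 thus had more CDX2 than HT29, and less CDX1, HNF4A and VIL1.

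For FABP1 and GUCY2C, LS513 was above LS174T by 4.76 (SE 0.26) and 4.32 (SE 0.18) on the log2 scale in 2D and by 4.00 (SE 0.24) and 3.15 (SE 0.17) in 3D, and LS174T was above HT29. HT29 and HCT116 were both at 0 counts of these genes in 2D. GUCA2A was highest in LS513, and HT29 and LS174T did not differ in 2D beyond their spread (0.60, SE 0.75, adjusted p = 0.5) but differed in 3D by 1.04 (SE 0.41, adjusted p = 0.032). GUCA2B was highest in LS513 in 2D, by 5.09 over HT29 (SE 0.98, adjusted p = 2.1e-04), and highest in HT29 in 3D, by 3.02 over LS513 (SE 0.86, adjusted p = 0.0054). ANPEP was highest in LS174T, by 1.78 over HT29 in 2D (SE 0.40, adjusted p = 4.1e-04) and by 4.13 in 3D (SE 0.31, adjusted p = 2.8e-11), and the steps between neighbours among the other lines did not pass.

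The genes whose pattern over the 24 libraries was most like that of a member were found by the root mean square difference of log2(CPM + 0.5) after centring, a description that mostly reflects differences between the 4 lines. REG4, a secreted lectin of the gut, was nearest to CDX1 at 0.49, with IL32 second at 0.68. PLLP was nearest to CDX2 at 0.51, with TTC9 second at 0.60. MUC13, a membrane mucin, was nearest to VIL1 at 0.65, with TXNIP second at 0.66. APOBEC1, the enzyme that edits apolipoprotein B mRNA, was second for GUCA2A at 0.51 after ANKRD40CL at 0.49. CADPS was nearest to GUCY2C at 0.43, with IL33 second at 0.51. L1TD1 was nearest to ANPEP at 0.23, with MT1H second at 0.28. For FABP1, SPINK4, a goblet cell peptide, was nearest at 1.34 and GUCY2C second at 1.38. The measure is not scaled to the span of a gene's group means, which was 12 for FABP1 and 3.13 for ANPEP on the log2 scale. Its values are therefore not to be compared between members.

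Other genes of the absorptive cell were followed in 6 lists of 104 genes, whose counts are to be read beside the share of all tested genes that rose (13.7% in LS513, 13.1% in LS174T, 21.1% in HT29 and 16.8% in HCT116) or fell (9.9%, 9.15%, 19.6% and 12.3% likewise). The lists were chosen with earlier results of these data known, so that a share above that of all tested genes is a description. The list of brush border structure, which holds proteins of microvilli together with the differentiation markers KRT20, GPA33, LGALS4 and CDH17, had 17 tested genes of 18, of which 11 rose and 1 fell in HT29, 11 rose and 1 fell in LS513, 6 rose in HCT116 and 11 rose in LS174T. Its median log2 fold change was 1.29, 0.62, 0.61 and 0.74 for the lines in that order, beside medians of all tested genes of at most 0.02. The genes ESPN, KRT20, LGALS4, MYO7B, USH1C and VILL, named after their values were seen, were the 6 that rose in every line, though in HCT116 LGALS4 had only 3 to 19 and MYO7B 0 to 11 counts a library. KRT20, a keratin of mature colonocytes, went from 0.646 ± 0.0372 to 2.5 ± 0.412 CPM in HCT116 (log2 fold change 1.95, SE 0.26, adjusted p = 7.4e-06) and from 0.817 ± 0.208 to 12.5 ± 2.77 CPM in LS174T (log2 fold change 3.93, SE 0.21, adjusted p = 2.5e-11). GPA33, a surface antigen of the intestinal epithelium, went from 0.359 ± 0.145 to 3.09 ± 0.227 CPM in HT29 (log2 fold change 3.16, SE 0.23, adjusted p = 1.1e-09). ESPN, an actin bundler, went from 0.703 ± 0.326 to 3.47 ± 0.817 CPM in LS513 (log2 fold change 2.30, SE 0.32, adjusted p = 1.7e-05). HCT116, in which VIL1 stayed at 4 to 9 counts, thus had other genes of the list that rose. The genes that rose were 64.7% of those tested in HT29, LS513 and LS174T and 35.3% in HCT116.

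Of 17 tested intestinal transcription factors of 20, 6 rose and 2 fell in HT29, 7 rose and 1 fell in LS513, 3 rose and 1 fell in HCT116 and 6 rose and 1 fell in LS174T, with medians between 0.05 and 0.20. The share that rose was 35.3% in HT29, 41.2% in LS513 and 35.3% in LS174T, and in HCT116 it was 17.6% beside 16.8% of all tested genes. ELF3 and KLF4, factors of the differentiating epithelium, were the 2 that rose in every line. KLF4 went from 4.99 ± 1.16 to 11.7 ± 0.86 CPM in HT29 (log2 fold change 1.24, SE 0.19, adjusted p = 2.1e-05), with changes of 1.22 in LS513 and 1.14 in LS174T. ELF3 went from 77.7 ± 12.9 to 251 ± 52 CPM in HCT116 (log2 fold change 1.69, SE 0.21, adjusted p = 3.1e-06).

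The 14 tested brush border and luminal enzymes of 18 gave 3 that rose in HT29, 6 that rose and 1 that fell in LS513, 1 that rose and 2 that fell in HCT116 and 2 that rose in LS174T. The share that rose was near that of all tested genes in HT29 (21.4% beside 21.1%) and LS174T (14.3% beside 13.1%), above it in LS513 (42.9% beside 13.7%) and below it in HCT116 (7.14% beside 16.8%). Their medians were 0.53, 0.54, 0.00 and 0.94, or 0.47, 0.54, 0.00 and 0.43 with genes that were at 0 in a group set to their bound. CA2, a carbonic anhydrase of colonocytes, went from 0.84 ± 0.305 to 10.9 ± 1.8 CPM in LS513 (log2 fold change 3.69, SE 0.21, adjusted p = 2.1e-10) and from 1.85 ± 0.189 to 8.17 ± 0.658 CPM in HT29 (2.14, SE 0.20, adjusted p = 6.1e-08), and it was among the genes that fell in HCT116. ACE, a peptidase of the brush border, rose in every line, though in HT29 this rests on 0 to 2 counts a library in 2D and 3 to 9 in 3D. It rose by 1.29 (SE 0.19, adjusted p = 3.4e-05) in HCT116 and 1.86 (SE 0.22, adjusted p = 3.2e-06) in LS174T.

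Of the 10 tested genes of lipid absorption, out of 14, 4 rose in HT29, 5 rose in LS513, 3 rose in HCT116 and 5 rose in LS174T, which is 40%, 50%, 30% and 50% beside 21.1%, 13.7%, 16.8% and 13.1% of all tested genes. The medians were 0.22, 0.45, 0.29 and 0.85, or 0.22, 0.45, 0.20 and 0.45 with genes that were at 0 in a group set to their bound. MTTP, which loads lipid onto apolipoprotein B, went from 0.178 ± 0.0971 to 1.79 ± 0.367 CPM in LS513 (log2 fold change 3.31, SE 0.34, adjusted p = 2.1e-07). APOB itself was listed at 0 in all groups, and FABP2, the intestinal relative of FABP1, was at 0 in HT29 and HCT116. MOGAT2, which makes diacylglycerol, rose in HT29 by 2.07 (SE 0.39, adjusted p = 3.6e-04), FABP6, the ileal bile acid carrier, rose in HCT116 by 1.59 (SE 0.25, adjusted p = 5.0e-05), and PLIN2, which coats lipid droplets, rose in LS174T from 36.7 ± 2.12 to 79.4 ± 2.13 CPM (1.11, SE 0.11, adjusted p = 2.1e-07).

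The absorptive transporters did not move in one direction. Of 12 tested of 18, 5 rose and 2 fell in HT29, 6 rose and 2 fell in LS513, 5 rose and 2 fell in HCT116, and 2 rose and 5 fell in LS174T. The share that rose was 41.7%, 50%, 41.7% and 16.7% for the lines in that order. The 2 genes that fell in each of the first 3 lines are 16.7% of those tested, beside 19.6%, 9.9% and 12.3% of all tested genes. The 5 that fell in LS174T are 41.7% of those tested, beside 9.15% of all tested genes. The medians were 0.63, 0.70, 0.30 and 0.11, or 0.20, 0.70, 0.21 and 0.11 with genes that were at 0 in a group set to their bound. SLC5A1, the sodium and glucose cotransporter, rose in HCT116 from 3.53 ± 0.244 to 7.12 ± 0.948 CPM (log2 fold change 1.01, SE 0.18, adjusted p = 2.7e-04) and fell in LS174T from 16.3 ± 1.77 to 3.88 ± 0.463 CPM (-2.06, SE 0.18, adjusted p = 3.1e-08). It also rose in HT29 from 6.59 ± 1.23 to 28.4 ± 6.24 CPM and fell in LS513 from 43.8 ± 6.82 to 17.9 ± 2.88 CPM. SLC51A, a subunit of the basolateral bile acid exporter, rose in LS513 from 0.179 ± 0.0706 to 3.72 ± 1.49 CPM (4.36, SE 0.43, adjusted p = 1.6e-07). SLC3A1, a subunit of the cystine transporter, rose in HT29 by 2.32 (SE 0.41, adjusted p = 1.0e-04).

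The list of the cyclic GMP pathway holds kinases, channels and scaffolds that act with or after GUCY2C, and also other cyclases (NPR1, NPR2, GUCY1A1 and GUCY1B1) and NOS2, which makes nitric oxide. Of its 16 genes 13 were tested, of which 4 rose and 2 fell in HT29, 6 rose and 1 fell in LS513, 4 rose in HCT116 and 3 rose in LS174T, with medians of -0.06, 0.41, 0.41 and 0.15. With genes that were at 0 in a group set to their bound the medians were 0.00, 0.41, 0.30 and 0.15. NHERF4, a scaffold that binds GUCY2C, went from 1.47 ± 0.181 to 12.2 ± 3.86 CPM in LS513 (log2 fold change 3.05, SE 0.30, adjusted p = 1.5e-07), from 1.79 ± 0.149 to 5.83 ± 1 CPM in HT29 (1.71, SE 0.30, adjusted p = 1.2e-04) and from 0.272 ± 0.0596 to 1.46 ± 0.916 CPM in LS174T (2.38, SE 0.41, adjusted p = 2.7e-04). The share of the list that rose was 30.8% in HT29, beside 21.1% of all tested genes, 46.2% in LS513 beside 13.7%, 30.8% in HCT116 beside 16.8% and 23.1% in LS174T beside 13.1%, and in HT29 15.4% fell beside 19.6%. NPR2 was among the 2 that fell in HT29, and NOS2 was among those that rose in LS513, HCT116 and LS174T. VASP, an actin regulator that is a substrate of cyclic GMP kinase, rose in HCT116 by 0.41 (SE 0.10, adjusted p = 0.0034).

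**Figure D4:**
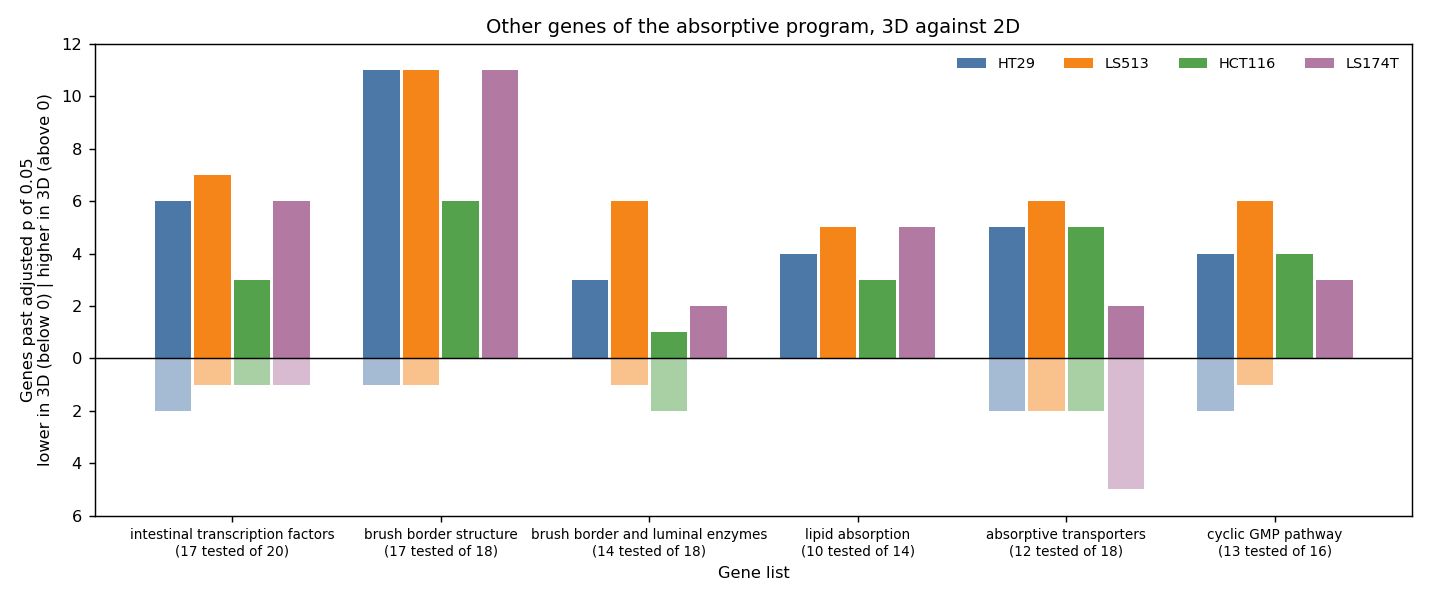
Number of genes past an adjusted p of 0.05 in 3D against 2D, by list and line, with genes higher in 3D above 0 and genes lower in 3D below 0 in paler colour. Brush border structure has 11 higher genes in 3 lines and 6 in HCT116, and the transporters of LS174T have 5 lower and 2 higher.

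Markers of other states moved with growth in the same libraries. Of 8 goblet and secretory markers 7 were tested, of which 5 rose in HT29 (71.4%), 2 in LS513 (28.6%), 7 in LS174T (100%) and 0 in HCT116. Of all tested genes, 21.1%, 13.7%, 13.1% and 16.8% rose in these lines in that order. In LS174T the summed level of the list went from 147 to 155 CPM in 2D up to 469 to 980.02 CPM in 3D. In HT29 the summed level went from 46.1 to 53.9 CPM up to 67.4 to 92.1 CPM, and CLCA1 and ZG16 were at 0 there in 2D. In LS513 it was 1053 to 1107 CPM in 2D and 942 to 1512 CPM in 3D, and in HCT116 it was 5.49 to 6.26 CPM and 4.65 to 10.6 CPM. Of 6 crypt stem markers, all tested, 2 rose and 2 fell in HT29 (33.3% each), 5 fell in LS513 (83.3%) and 1 fell in HCT116 (16.7%, near the share of all tested genes). In LS174T 1 rose (16.7%) and 2 fell (33.3%). In LS513 the summed level went from 788 to 791 CPM down to 541 to 559 CPM. Of 6 proliferation markers, all tested, 5 fell in HT29 (83.3%), 5 fell in LS513 (83.3%), 3 fell in HCT116 (50%) and 2 fell in LS174T (33.3%). Their summed level was lower in every 3D library than in every 2D library of its line, with 1399 to 1521 CPM against 2547 to 2677 CPM in HT29 and 1368 to 1629 CPM against 1860.3 to 2161 CPM in HCT116. Of 5 enteroendocrine markers 2 were tested, NEUROG3 and INSM1, and both rose in HT29 and in LS174T. Their list summed to 0 to 0.344 CPM in 2D and 2.8 to 6.61 CPM in 3D in HT29, to 0.867 to 2.1 CPM and 3.86 to 5.07 CPM in LS174T, and to at most 0.247 CPM in the other lines, and CHGB was at 0 in HT29 and LS174T. The hepatocyte markers summed to 0.0343 to 0.138 CPM in 2D and 1.59 to 2.32 CPM in 3D in HT29, to 0.227 to 0.269 CPM and 0.921 to 1.13 CPM in LS174T, and to at most 0.431 CPM in the other lines. The fibroblast list summed to at most 1.15 CPM outside HCT116, where it was at 13.1 to 15.2 CPM in 2D and 10.2 to 22.1 CPM in 3D. In the list of leukocytes and endothelium, CD68 rose in every line and VWF rose in LS513 (0.0414 to 0.457 CPM) and HCT116 (0.26 to 0.639 CPM), while PTPRC and CD3E were at or under the floor. The summed level of that list went from 18.1 to 20.5 CPM up to 62.2 to 92.4 CPM in LS513 and from 6.25 to 8.53 CPM up to 12.9 to 17.7 CPM in HT29, and in HCT116 it was 9.49 to 13.4 CPM and 36.4 to 47.8 CPM and in LS174T 2.13 to 3.86 CPM and 5.19 to 6.38 CPM. The part of these markers in the changes of the 10 genes was not tested.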

How the data were processed

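Poly(A) RNA of 4 CRC lines grown in 2D or in 3D was sequenced as strand-specific single reads. The authors deposited raw counts per gene and technical replicate, without normalization. Per the labels and the study's methods, adapters were removed with Trim Galore 0.4.1, reads were aligned with STAR, reads that aligned more than once were removed, and the rest were counted on exons with HTSeq 0.5.3. Reads shared with near-identical copies were therefore lost. The strand option of the counting is not given in the sources used here. The submitters' processing notes list hg19 and the methods an Ensembl annotation. Counts were joined by Ensembl identifier, and positions, lengths and overlaps printed here come from GENCODE 29 on GRCh38 and promoters from RefSeq.

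Technical replicates (8 a library) were summed. For 1 library of HT29 grown in 3D, 7 were used and 1 was not analysed here. Chi-square per degree of freedom between the technical replicates had medians between 0.905 and 0.933, at or under counting error. Groups came from the labels. Genes were kept with filterByExpr (minimum count of 10), which left 19387 of 58243, and tested in R 4.3.3 with edgeR 4.0.16 (TMM, robust quasi-likelihood fit of 8 group means over 24 libraries, Benjamini-Hochberg adjustment). CPM per kilobase used all annotated exon bases. The steps were tested on simulated data. Intervals and the floor of 3 counts cover counting error only, since reads carry no molecular identifiers.

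The 10 genes and the 6 lists of 104 genes and 8 lists of 45 markers were chosen with earlier results of these data known. From each of the 6 lists and each line, the called gene with the largest absolute log2 fold change and at least 1 CPM in the higher group was named. The 2 genes most like a member were named where its group means spanned more than 3 on the log2(CPM + 0.5) scale, and genes that overlap a member were named. The genes most like HNF4A are not reported here. Alternatives were DESeq2 1.42.0 and its size factors, no filter on low counts, a replicate block, each line or growth condition fitted alone, leaving out technical replicate d or each library, and the longest transcript as length. Same-numbered 2D and 3D libraries had correlations of their deviations between -0.146 and 0.094, so the numbers were not taken as pairs.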

Additional observations from a re-analysis of the deposited data

Results flagged for a closer look

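For 6 of the 10 genes the growth effect differed between the lines by the interaction test of edgeR, over all 4 lines and adjusted over all tested genes. These were CDX1 (adjusted p = 6.8e-05), CDX2 (adjusted p = 1.8e-06), ANPEP (adjusted p = 5.2e-04), GUCA2A (adjusted p = 0.0029), GUCA2B (adjusted p = 0.0016) and GUCY2C (adjusted p = 0.01), and 17.1% of all tested genes passed the same test. CDX1, ANPEP, GUCA2A, GUCA2B and GUCY2C passed the filter on low counts through the groups in which they were high. The count of 6 is therefore a description. CDX1 and CDX2 had their largest log2 fold changes in HT29, at 2.82 and 2.25. ANPEP had its largest in LS174T, at 3.16. GUCA2A changed by 2.49 in HT29 and by -0.36 in LS513, where it did not pass, and GUCA2B changed by 4.32 in HT29 and by -3.78 in LS513. GUCY2C changed by 1.68 in LS174T and by 0.51 in LS513. In HCT116 none of these 6 genes passed with edgeR or with DESeq2, and none had an unadjusted p under 0.05. There CDX1 and GUCA2A had 1 count each over all libraries, GUCA2B and GUCY2C had 0 and ANPEP had 2 to 6 a library. For these genes the test could hardly show a change, and CDX2 was the only one of the 6 above the floor.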

How the results depend on the processing

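Of 1202 comparisons of a member's result with an alternative, 1187 kept their side of the threshold. A further 8 lost the call and 7 gained it, and 0 called results changed direction. Some of the results could not change side, such as those of FABP1, GUCA2B and GUCY2C in HCT116, which had 0 counts there. Results that did not pass could change sign, as VIL1 in HCT116 did, from a log2 fold change of -0.08 to 0.14 without replicate 1 of the 3D group. The count of members called stayed within 1.5 times its value in each comparison and under each alternative run. The calls lost were GUCY2C in LS513, and HNF4A and GUCA2A in LS174T, and those gained were CDX1 and VIL1 in LS174T and the interaction of FABP1, whose adjusted p was 0.015 with DESeq2, 6.6e-06 without the filter on low counts and 0.034 without replicate 3 of LS174T grown in 2D. CDX1 in LS174T passed without the filter (adjusted p = 0.026), and VIL1 there passed without technical replicate d (adjusted p = 0.039).

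The count over all genes was 4305 in LS174T and 1648 when LS174T was fitted alone. With a replicate block, that is, pairing libraries by number, 1698 genes in place of 3314 differed in growth effect between lines, and for the members the block changed no call. When each library was left out in turn, genes called numbered 6372 to 7124 in HT29 (7887 with all), 2784 to 5221 in LS513 (4571), 3747 to 5986 in HCT116 (5637), 2083 to 6038 in LS174T (4305), and 2707 to 4247 for the interaction (3314). The count moved by more than 1.5 times without replicate 2 of LS513 in 2D (3030) or in 3D (2784), replicate 1 of HCT116 in 2D (3747), replicates 1, 2 and 3 of LS174T in 2D (2709, 2781 and 2616) and replicate 2 of LS174T in 3D (2083). The causes were not tested. Depth limits GUCA2B, SI and, outside LS174T, ANPEP, which rest on few counts.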
